A study of Mus musculus with 7 samples.

Results

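The genes described here are those of the heat shock protein and Dnaj chaperone families on an Affymetrix mouse oligonucleotide array, measured in the colon of mice with chronic TNBS colitis. They were chosen by name from the platform annotation: the symbols that begin with Hsp, Dnaj, Cct or Fkbp and carry a number, without Hspa5 and Hsp90b1, with Chordc1, Stip1 and Hsf1 added. The rule itself used no measured value, but the members were chosen with earlier results of these data known. It found 66 of the 8251 genes on the array, and 51 of them reached a signal of at least 100 in the highest pool, which is the limit used here for a measured gene (4314 of 8251 genes). Hsf1 and Hsp90ab1 had no probe set with a single symbol and were not analysed here. By textbook location, 33 of the 51 measured members work in the cytosol or nucleus, 8 in the endoplasmic reticulum (ER) and 5 in mitochondria, so a cytosolic label does not cover all of them. The 5 others include Hspg2, which is perlecan, a basement membrane proteoglycan, and Hspb11, an intraflagellar transport protein, and neither is a chaperone in the usual sense.

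All mice were female CD-1 outbred animals, 10 to 12 weeks old at the start. The colitis mice were given TNBS in ethanol by enema, 6 times in all (TNBS, trinitrobenzene sulphonic acid, is a hapten that sets off an immune reaction in the bowel). TNBS-treated mice were killed 3 days after the last enema (week 6, 6 mice) or 2 weeks (week 8, 4 mice), 4 weeks (week 10, 5 mice) or 6 weeks (week 12, 4 mice) after it. Control mice received saline enemas and were killed at week 6 (5 mice) or later (4 mice, 2 at week 8 and 2 at week 10, in 1 later saline pool). No group received ethanol alone, so TNBS and ethanol cannot be told apart. Colon was taken 4 ± 0.5 cm above the anus and RNA was pooled over the mice of a group, so the 7 arrays stand for 6 pools. Week 6 saline RNA was measured on 2 arrays. Each TNBS time is 1 pool and the spread between mice is unknown. The week 8, 10 and 12 comparisons share the later saline pool, which holds no mice killed at week 12, and a high or low value in that pool enters all 3. In pooled tissue, fewer cells of a type and less RNA per cell cannot be told apart.

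Chaperones bind proteins that are not folded and keep them from clumping. Dnaj proteins, also called J-domain proteins or Hsp40s, hand such proteins to Hsp70 and switch on its ATPase, and nucleotide exchange factors such as Hsph1 reset the cycle. Hsp90 and its co-chaperones, among them Stip1 and the FK506-binding proteins Fkbp4 and Fkbp5, mature kinases and steroid receptors. The Cct ring folds actin and tubulin, and Hspd1 with Hspe1 forms the mitochondrial folding chamber. The transcription factor Hsf1 switches on many of these genes through heat shock elements, which are inverted repeats of GAA. Inducible Hsp70 and the small heat shock protein Hspb1 are known as protective proteins of the gut epithelium.

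The upstream sequences of several members are shown because the family is known for this element, and because the members with and without it can be set beside their signals. They are the 250 bases before the start in RefSeq (mouse build GRCm38.p6), written 5′ to 3′ on the gene's strand. Capitals mark heat shock elements, or in Dnajc3 an ER stress element. Hspe1 (chr1:55087898-55088147, plus strand) and Dnajb6 (chr5:29735648-29735897, plus strand) hold the longer element of 3 repeats. Hsph1 (chr5:149636337-149636586, minus strand) and Hspa1a (chr17:34972157-34972406, minus strand) hold the shorter one of 2 repeats, and Chordc1 (chr9:18292017-18292266, plus strand) holds neither. Dnajc3 (chr14:118937682-118937931, plus strand) was the 1 member with the ER stress element.
Hspe1: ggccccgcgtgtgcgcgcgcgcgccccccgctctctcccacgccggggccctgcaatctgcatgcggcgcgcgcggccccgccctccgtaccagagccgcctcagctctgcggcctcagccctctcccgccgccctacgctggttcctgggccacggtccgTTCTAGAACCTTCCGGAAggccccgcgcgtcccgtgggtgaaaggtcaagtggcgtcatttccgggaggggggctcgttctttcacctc
Dnajb6: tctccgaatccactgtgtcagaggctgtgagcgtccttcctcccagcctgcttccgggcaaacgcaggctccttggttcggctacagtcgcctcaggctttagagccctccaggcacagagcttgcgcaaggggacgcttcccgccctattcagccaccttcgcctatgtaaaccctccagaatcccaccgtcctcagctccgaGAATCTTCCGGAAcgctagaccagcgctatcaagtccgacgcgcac
Hsph1: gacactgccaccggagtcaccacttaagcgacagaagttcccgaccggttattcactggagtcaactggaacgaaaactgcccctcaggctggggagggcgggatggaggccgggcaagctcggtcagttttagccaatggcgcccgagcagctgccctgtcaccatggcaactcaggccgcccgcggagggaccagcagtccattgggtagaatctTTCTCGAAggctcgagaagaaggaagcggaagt
Hspa1a: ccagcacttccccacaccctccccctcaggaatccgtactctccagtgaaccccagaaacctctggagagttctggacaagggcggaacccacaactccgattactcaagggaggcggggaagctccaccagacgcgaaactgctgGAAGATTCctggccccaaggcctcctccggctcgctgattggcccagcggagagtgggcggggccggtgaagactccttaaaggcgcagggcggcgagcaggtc
Chordc1: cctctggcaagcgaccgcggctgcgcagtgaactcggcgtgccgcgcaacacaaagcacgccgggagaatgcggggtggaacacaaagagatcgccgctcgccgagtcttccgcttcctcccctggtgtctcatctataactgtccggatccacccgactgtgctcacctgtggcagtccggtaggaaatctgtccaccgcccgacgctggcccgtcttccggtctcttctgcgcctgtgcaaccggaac
Dnajc3: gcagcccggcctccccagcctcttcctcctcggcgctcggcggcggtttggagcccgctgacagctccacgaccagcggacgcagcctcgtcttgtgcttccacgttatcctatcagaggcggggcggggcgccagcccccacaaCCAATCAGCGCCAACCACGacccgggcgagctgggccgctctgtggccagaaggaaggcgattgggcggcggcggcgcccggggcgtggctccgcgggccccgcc

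A RefSeq upstream window was found for 58 of the 66 members. The shorter heat shock element was searched as GAANNTTC or TTCNNGAA, each of which reads the same on both strands. It lay in the window of 14 of 58 members (24.1%) and of 3932 of 27025 genes (14.5%). The longer element is the shorter one followed, after NN, by another repeat in the opposite orientation (GAA after TTC, TTC after GAA), searched on both strands. It lay upstream of 3 of 58 members (Dnajb6, Hspd1 and Hspe1), compared with 0.514% of all genes. The ER stress element, CCAAT and CCACG with 9 bases between them on either strand, lay upstream of 0.130% of all genes. Hspd1 and Hspe1 are transcribed in opposite directions from neighbouring starts on chromosome 1. The Hspe1 start lies at base 55088148 and the 2 annotated Hspd1 starts at bases 55087932 and 55088243, and the window before the first of these overlaps that of Hspe1 and holds the same elements. The window before the second does not overlap it and holds 0 elements. The windows of Hspa1a and Hspa1b differ at 3 of 250 positions, and these genes are near-identical copies, so their probe sets may read RNA of both. A match is a string of letters and no evidence that a factor binds there.

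The median chaperone gene lay near saline at every time, with members on both sides of it. At week 6, 3 of the 51 measured members were at least 1.5-fold higher in the TNBS pool and 0 were at least 1.5-fold lower, where 7.56% of all 4314 measured genes were higher and 5.96% lower. At week 8, 6 members were higher and 2 lower (6.54% and 9.76% of all genes). At week 10, 1 member was higher and 8 lower (4.89% and 6.28%), and at week 12, 4 were higher and 4 lower (4.82% and 5.38%). The median log2 difference of the members, TNBS minus saline, was 0.09 at week 6, 0.01 at week 8, -0.11 at week 10 and -0.03 at week 12, beside medians over all measured genes of -0.02, -0.07, -0.00 and 0.00. In all, 21 members differed 1.5-fold in at least 1 comparison, 30 in none, and 1, Stip1, differed 2-fold. The share of all genes over the 4 comparisons together is not given here, so nothing is read from these counts. A test was not possible for these comparisons, since both sides are single pools.

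The same count was made where no TNBS is involved. Between the later and the week 6 saline pools, 2 members were at least 1.5-fold higher in the later pool (Cct8 and Dnajc13) and 0 lower, where 5.05% of all genes were higher and 5.03% lower. Between the first and second array of week 6 saline RNA, 0 members were higher and 1 was lower on the second array (2.69% and 2.62% of all genes), which was Hspbp1, an Hsp70-binding nucleotide exchange factor. It read 178.9 and 111.6 on the 2 arrays. The higher members at week 8 (11.8%) and the lower members at week 10 (15.7%) were the counts farthest above the shares of all genes, and both moved with the processing. Of the 8 lower members at week 10, 3 (Stip1, Dnajc4 and Dnajc15) reached the limit of 100 in saline pools alone, so a lower TNBS value was built into their selection. The 8 became 4 with a floor of 100 and 1 with log2(value + 50). Giving all arrays the same median moved the median gene by 0.175 at week 8 and by 0.137 at week 10 on the log2 scale, and the counts became 10 higher and 0 lower at week 8 and 2 higher and 4 lower at week 10. Quantile normalization gave 8 higher and 0 lower at week 8, and 1 higher and 6 lower at week 10. The shares of all genes under these settings are not given here, so these counts do not show whether the excess over all genes changed.

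**Figure D1:**
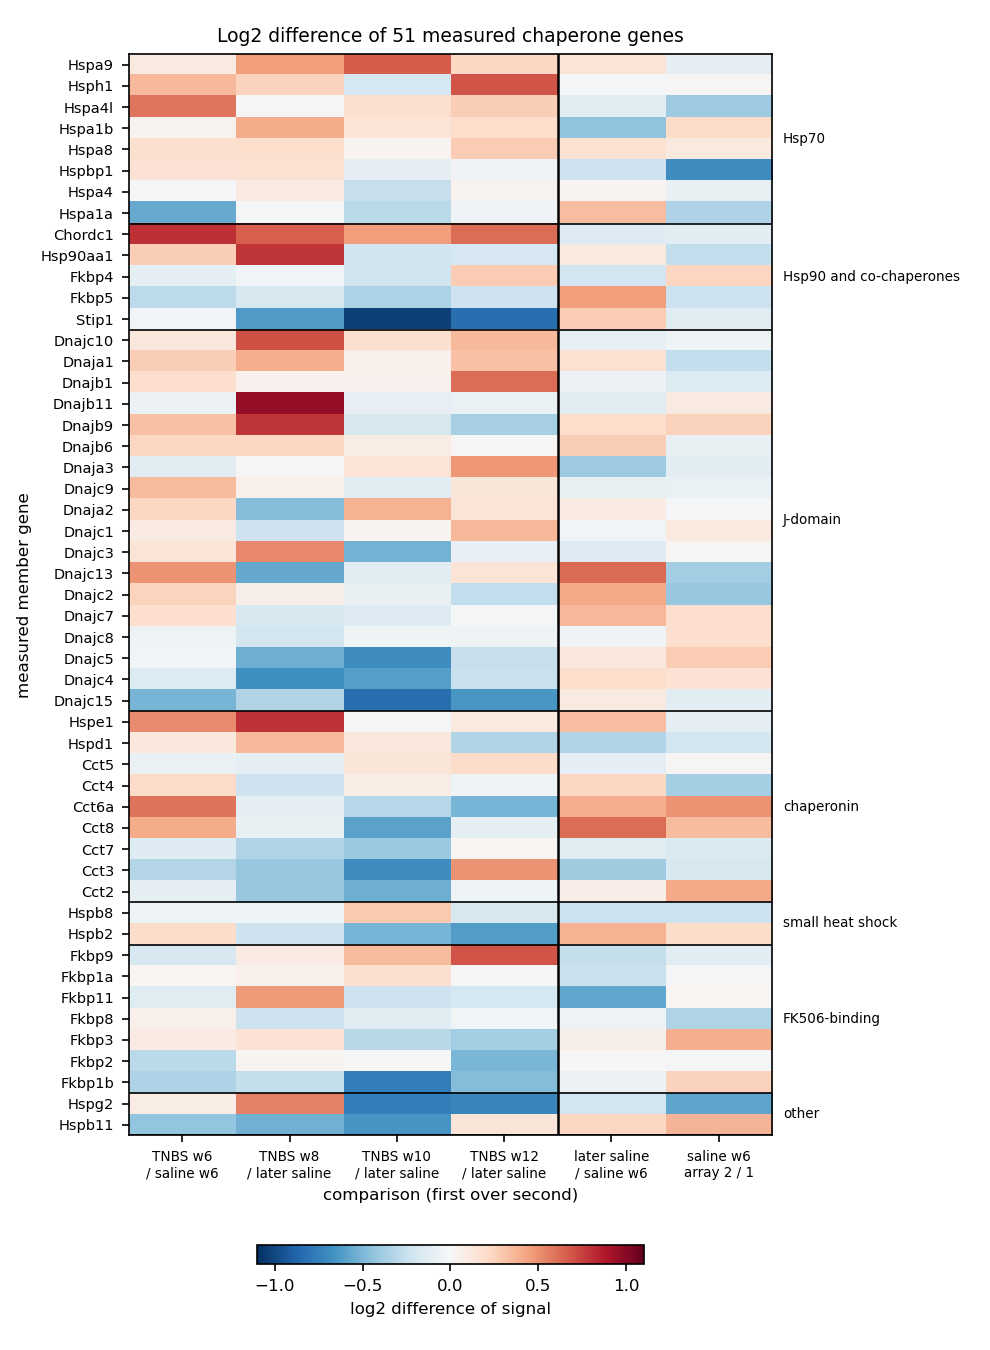
Heat map of the log2 difference in signal for the 51 measured members (rows, by role) in the 4 TNBS comparisons (left of the line) and in the 2 comparisons without TNBS (right of it). Red is higher and blue lower in the first-named pool or array. Chordc1 is red in all 4 TNBS columns, and most rows are pale.

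The model over all pools called no member. It was a limma fit of the 4 TNBS pools against the 2 saline pools, with the saline set as a covariate, 3 residual degrees of freedom and p-values adjusted over 4314 genes. At an adjusted p under 0.05 it called 0 of 51 members and 0% of all genes. Without adjustment, 1 member (Chordc1) was under 0.05, where 5.10% of all genes (220 genes) were. The lowest adjusted p of a member was 0.888 in limma. For the difference between the week 6 effect and the later effect, limma also called 0 members and 0% of all genes. Unadjusted, 0 members and 1.85% of genes (80 genes) were under 0.05, and the lowest adjusted p of a member was 0.999. The 95% intervals of the pooled log2 differences were between 0.709 and 1.73 wide, so differences of 1.5-fold lie inside the wider ones.

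**Figure D2:**
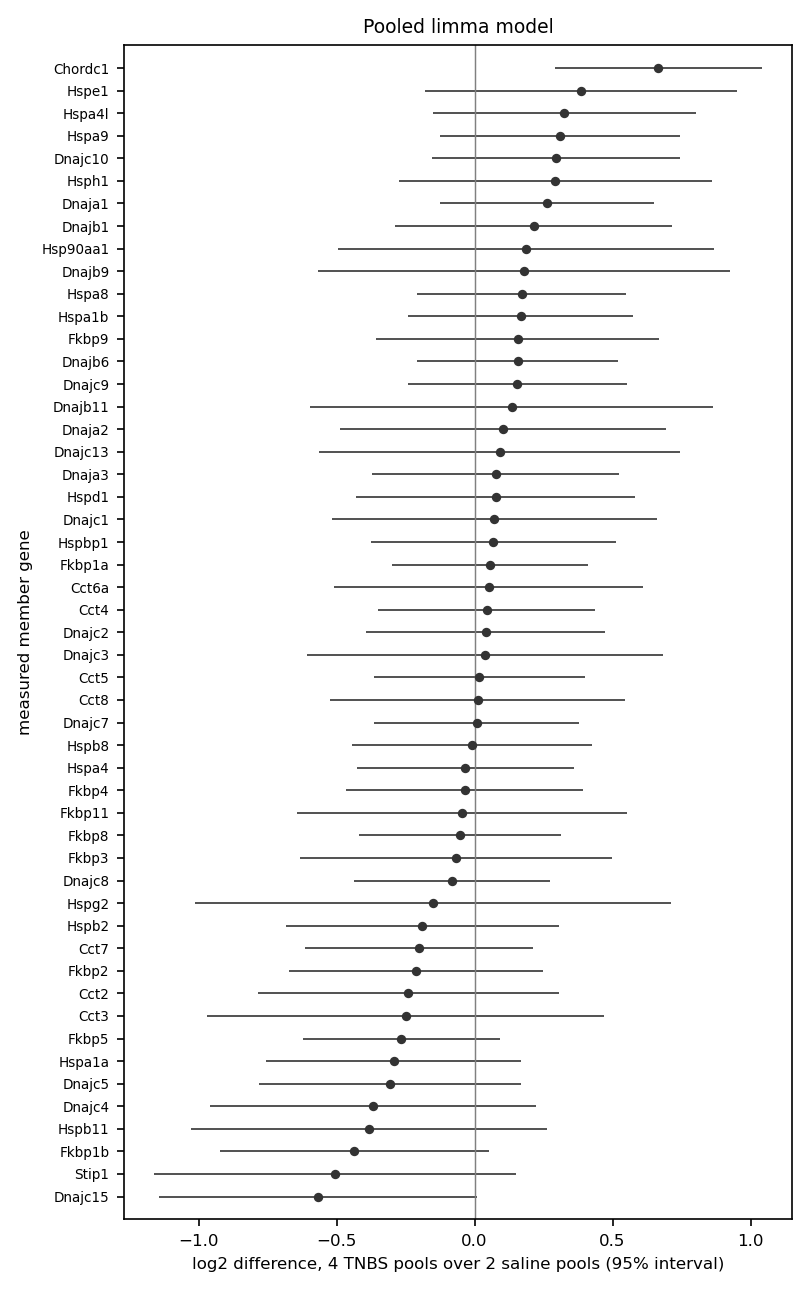
Log2 difference of each measured member in the pooled limma model, 4 TNBS pools over 2 saline pools (points), with its 95% interval (lines). The interval of Chordc1, from 0.29 to 1.04, is the one that does not cross 0.

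Chordc1, a zinc-binding partner of Hsp90 known as morgana, stood at the top of this order. Its signal was 433.7 at week 6, 354.6 at week 8, 310.0 at week 10 and 345.1 at week 12 in the TNBS pools, against 259.0 and 239.6 on the 2 week 6 saline arrays and 225.3 in the later saline pool. All 4 TNBS values lay above all 3 saline values. The differences were 1.74-fold, 1.57-fold, 1.38-fold and 1.53-fold in time order, all higher with TNBS. The pooled log2 difference was 0.67 (SE 0.16, limma, unadjusted p = 0.0033, adjusted p = 0.888), so it does not pass the adjusted threshold. It lay between 0.53 and 0.80 under the alternatives tried. The second Chordc1 probe set on the array gave log2 differences of 0.50, 0.39, -0.05 and 0.67, and so was not higher at week 10.

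Such a separation of the arrays was seen for 6 members in all. Chordc1, Dnaja1, Dnajc10 and Hspa8 had all 4 TNBS arrays above all 3 saline arrays (4 of 51, beside 4.96% of all genes). Dnajc15 and Fkbp1b had all 4 below (2 of 51, beside 6.12%). Both shares are close to those over all genes.

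Among the Hsp70 group, the constitutive and the inducible genes differed little. Hspa8, the constitutive cytosolic Hsp70, read 1433.5, 1630.6, 1452.6 and 1732.7 in the TNBS pools at weeks 6, 8, 10 and 12, against 1224.8 and 1318.4 (week 6) and 1423.6 (later) in saline. The separation was narrow, since the lowest TNBS value was near the later saline value, and the largest difference was 1.22-fold, at week 12. Hspa1a, stress-inducible, read 94.5, 173.3, 143.2 and 171.5 in the TNBS pools, against 156.4, 123.7 and 175.7 in saline. Its near copy Hspa1b read 213.3, 202.2, 169.1 and 174.6, against 193.3, 222.2 and 152.5. In both genes the TNBS and saline values overlapped. Hspa1a was 1.47-fold lower at week 6 and no difference of Hspa1b was over 1.33-fold, so neither inducible gene reached 1.5-fold at any time.

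The exchange factors of Hsp70 showed isolated differences. Hsph1 (Hsp110) read 404.5, 371.4, 273.2 and 504.7 in the TNBS pools, against 315.2, 317.8 and 311.8 in saline. It was 1.62-fold higher at week 12 and below every saline array at week 10. Hspa4l, a relative of Hsph1, read 173.3 at week 6 and between 107.1 and 127.7 later in the TNBS pools, against 132.5, 100.4 and 106.1 in saline. The week 6 difference was 1.5-fold higher, while its 2 saline arrays of that week were themselves apart. Hspbp1 was within 1.12-fold at all times. Hspa4 was within 1.19-fold by the probe set used, while another of its 5 probe sets read 1.45-fold higher at week 6 and 1.48-fold higher at week 8. Dnajb1, the classical Hsp40 partner of inducible Hsp70, read 186.3, 162.1, 162.9 and 240.5, against 173.2, 155.9 and 157.2. Like Hsph1, Dnajb1 was highest at week 12 (1.53-fold higher). Before that Dnajb1 was at most 1.13-fold higher, while Hsph1 was 1.28-fold and 1.19-fold higher at weeks 6 and 8. Dnaja1 read 545.1, 671.4, 529.1 and 638.1, against 496.7, 412.9 and 509.3, with differences of 1.04-fold to 1.32-fold, all higher.

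Apart from Chordc1, the Hsp90 group held 1 gene at least 1.5-fold higher at any time, Hsp90aa1, and 1 at least 1.5-fold lower, Stip1. Hsp90aa1, the inducible cytosolic Hsp90, read 1537.1, 2365.1, 1175.1 and 1204.4 in the TNBS pools, against 1394.4, 1159.0 and 1369.3 in saline. The week 8 value stood alone, 1.73-fold over the later saline pool, and the other TNBS values overlapped saline. Stip1, which joins Hsp70 to Hsp90, read 89.7, 71.9, 54.5 and 62.5, against 95.8, 87.3 and 110.8. It was level at week 6 (1.02-fold), then 1.54-fold, 2.03-fold and 1.77-fold lower at weeks 8, 10 and 12. Stip1 passed the limit of 100 through the later saline pool alone, so some difference from that pool was built into its selection, and its values lie near the floor of 50. Its pooled log2 difference was -0.51 (SE 0.29, limma, adjusted p = 0.888). Fkbp4 read 1003.6, 908.6, 800.1 and 1124.2, against 992.4, 1170.0 and 928.6. Fkbp5, a glucocorticoid-induced gene, read 299.3, 444.9, 394.2 and 430.0, against 395.9, 336.9 and 502.5. Neither reached 1.5-fold, and both overlapped saline.

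**Figure D3:**
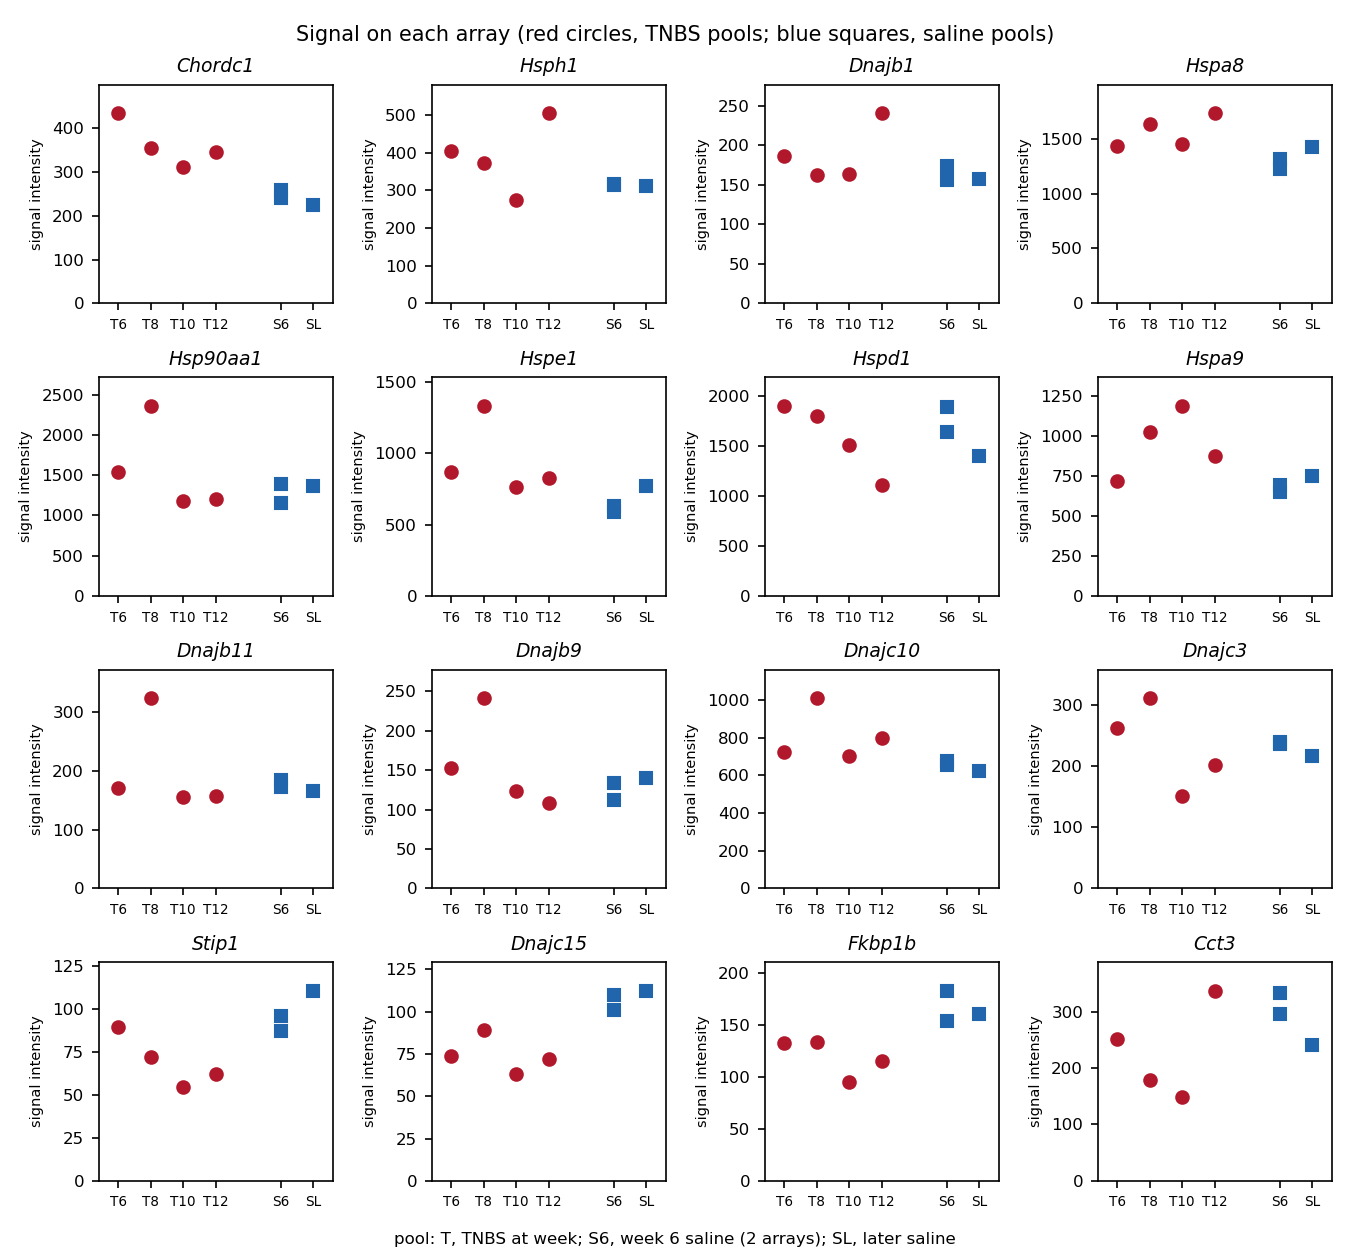
Signal intensity (linear scale from 0) of 16 members on each of the 7 arrays: TNBS pools at weeks 6, 8, 10 and 12 (red circles) left of the week 6 saline pool on 2 arrays and the later saline pool (blue squares). Dnajb11, Dnajb9, Hsp90aa1 and Hspe1 stand high at week 8, while the week 12 value is the highest for Hsph1 and Dnajb1.

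Of the J-domain proteins, 18 of 27 were measured, and the 3 that were at least 1.5-fold higher at week 8 all work in the ER. Dnajb11, an ER partner of the Hsp70 Hspa5, read 170.8, 323.8, 155.3 and 157.0 in the TNBS pools, against 172.6, 185.2 and 165.3 in saline. The week 8 pool was 1.96-fold higher and all other pools lay close together. Dnajb9, which guides misfolded ER proteins to degradation, read 153.2, 241.3, 123.9 and 108.5, against 112.1, 133.9 and 139.7. It was 1.73-fold higher at week 8, although its second probe set gave a log2 difference of 0.13 there. Dnajc10, an ER disulfide reductase, read 722.8, 1009.3, 701.6 and 795.5, against 674.1, 653.7 and 621.9. It was 1.62-fold higher at week 8 and above every saline array at the other times as well. Dnajc3, an ER co-chaperone also known as an inhibitor of the kinase PKR, read 261.7, 311.4, 150.7 and 202.6, against 236.6, 239.1 and 216.1. It was 1.44-fold higher at week 8 and 1.43-fold lower at week 10 by the probe set used. Another probe set gave log2 differences of 0.44 and -0.80 at these weeks, and a further probe set gave 1.04 and -0.80. The remaining probe set was under the floor on all arrays.

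Taking all 8 measured ER members, 7 were above the later saline pool at week 8, where 42.8% of all genes were, and 3 of the 8 passed 1.5-fold. Their median log2 difference was 0.50. The exception was Dnajc1, at -0.23. In the same pool the 5 mitochondrial members had a median of 0.37 and the 33 members of the cytosol and nucleus a median of -0.03. The ER median was 0.67 with equal array medians and 0.57 with quantile normalization, where 6 of 8 were above saline. In the same order the cytosolic median became 0.14 and -0.00, and the mitochondrial median 0.54 and 0.16. The saline pools themselves differed: 7 of the 8 ER members were lower in later saline than in week 6 saline (median -0.10), while the cytosolic median of that difference was 0.06. Against the week 6 saline pool, the week 8 median was 0.21 for the ER members (5 of 8 above saline), 0.04 for the mitochondrial and -0.02 for the cytosolic members, and the ER members at least 1.5-fold higher again numbered 3. At weeks 6, 10 and 12 the ER median was 0.01, -0.04 and -0.08, of which the first was below 0 under both other scalings and the second was 0.09 with equal array medians. At 1.5-fold, the other high ER value was that of Fkbp9 at week 12. No test of the difference between compartments was possible with 1 pool.

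**Figure D4:**
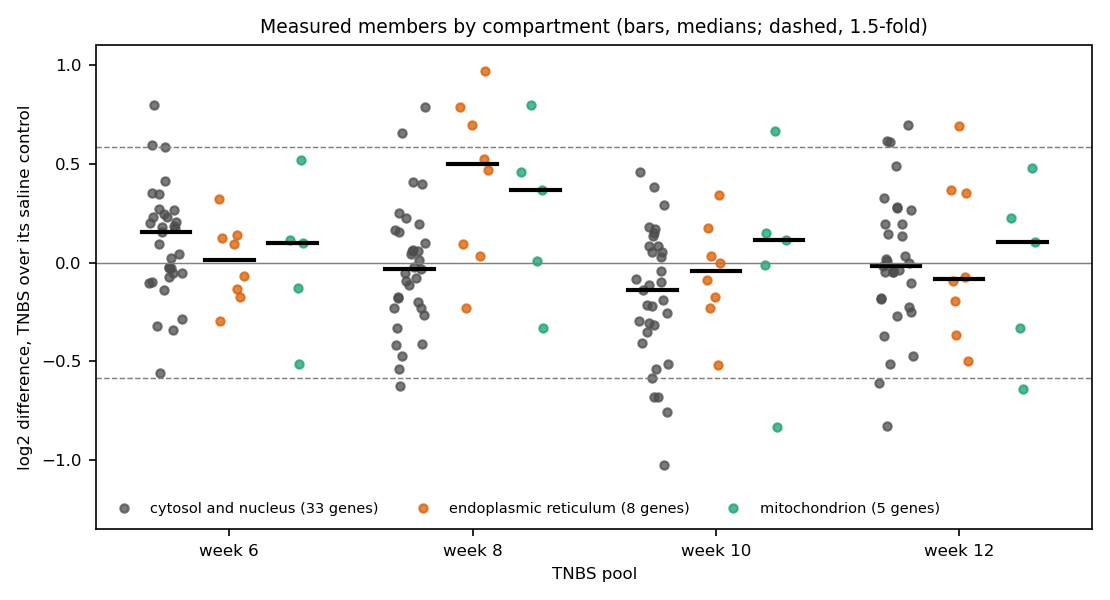
Log2 difference of each measured member, TNBS over its saline control, by week and compartment (points; black bars, medians; dashed lines, 1.5-fold; the 5 members of other places are not drawn). At week 8 the ER median is 0.50, the mitochondrial median 0.37 and the median of the cytosol and nucleus -0.03.

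Some of the ER chaperones that the naming rule leaves out had high values in the same pool. Of 17 measured genes of that list, 5 were at least 1.5-fold higher at week 8 and 0 lower (6.54% and 9.76% of all genes). The median log2 difference of the 17 was 0.32, with Canx (-0.14), P4hb (-0.24) and Ero1a (-0.05) below saline. Pdia4 and Pdia3, protein disulfide isomerases, had log2 differences of 1.12 and 1.06, and Hsp90b1, the ER form of Hsp90, 1.04. Hspa5, the ER Hsp70 that Dnajb11 serves, read 1502.9, 3147.3, 1014.5 and 1183.7 in the TNBS pools, against 1508.6, 1574.4 and 1647.3 in saline. At week 10, 0 of the 17 were higher and 3 lower (Hspa5, Creld2 and Manf), beside 4.89% and 6.28% of all genes. Some markers of secretory and epithelial cells were also high in this pool. The summed signal of the colon epithelium markers was highest there, at 44650.9 at week 8 against 35101.8 in the later saline pool. Of the 10 measured, 1 was at least 1.5-fold higher (6.54% of all genes) and 0 lower, with a median log2 difference of 0.25. The largest were 0.86 for Fabp2, 0.54 for Tff3 and 0.42 for Clca1, while Aqp8 (-0.04) and Cdx1 (-0.38) were below saline. Of the 5 measured B and plasma cell markers, 1 was at least 1.5-fold higher and 0 lower (6.54% and 9.76% of all genes). It was the plasma cell gene Jchain, at 0.62, while Ighm was at -0.27. At weeks 6 and 8, 6 of the 8 measured pancreas markers were at least 1.5-fold higher (7.56% and 6.54% of all genes). None was lower then, and the medians were 2.40 and 2.78. At week 10, 0 were higher and 1 lower (4.89% and 6.28%), and at week 12, 1 was higher and 4 lower (4.82% and 5.38%). The median at week 12 was -0.67. The summed signal of that list ran from 6218.3 to 16039.3 over the TNBS arrays, highest at week 8, and from 7311.8 to 10359.4 over the saline arrays. None of its 8 genes was under the floor on all arrays, and 2 of them, Zg16 and Cela1, read at least 1235.4 on every array. The part of any of these cells in the week 8 values was not tested.

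At least 1.5-fold lower at some time were the J-domain genes Dnajc15, Dnajc5 and Dnajc4. Dnajc15, a protein of the inner mitochondrial membrane, read 73.6, 89.3, 63.2 and 72.2 in the TNBS pools, against 109.5, 100.9 and 112.4 in saline. No TNBS value reached the lowest saline value, and the differences were 1.43-fold, 1.26-fold, 1.78-fold and 1.56-fold lower. Its pooled log2 difference was -0.57 (SE 0.25, limma, adjusted p = 0.888). It passed the limit of 100 through the saline pools alone, so a lower TNBS value was built into its selection. Dnajc5, the cysteine-string protein of secretory vesicles, read 190.1, 145.3, 131.7 and 177.5, against 176.0, 213.2 and 211.4. It was 1.61-fold lower at week 10. Dnajc4 was 1.60-fold lower at week 8 and 1.52-fold lower at week 10, with all its values between 64.9 and 103.7, and it passed the limit through the later saline pool alone. Dnajb6 had probe sets that disagreed: the one used gave log2 differences of 0.23, 0.22, 0.09 and 0.01, and the other -0.36, 0.52, 0.87 and 1.17.

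The genes of the mitochondrial chaperonin pair have upstream windows that overlap for 1 of the 2 Hspd1 starts. At week 8 both were above the later saline pool, and at week 12 they lay on opposite sides of it. Hspe1 (Hsp10) read 868.4, 1333.7, 761.1 and 824.8 in the TNBS pools, against 628.3, 585.1 and 767.4 in saline. It was 1.43-fold higher at week 6, 1.74-fold higher at week 8 and level at week 10 (1.01-fold). Hspd1 (Hsp60) read 1909.0, 1806.3, 1515.9 and 1112.6, against 1890.9, 1640.7 and 1400.0, so that week 8 was 1.29-fold higher and week 12 was 1.26-fold lower. Its week 8 value lay between those of the 2 week 6 saline arrays. Hspa9, the mitochondrial Hsp70 that drives protein import, read 720.0, 1028.8, 1191.3 and 874.9, against 695.9, 651.0 and 749.1. Its difference was largest at week 10, at 1.59-fold higher, where the other mitochondrial members were between 1.78-fold lower (Dnajc15) and 1.11-fold higher (Dnaja3).

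The naming rule takes 7 measured subunits of the cytosolic Cct ring. Their median log2 differences were -0.07, -0.23, -0.40 and -0.05 at weeks 6, 8, 10 and 12. At week 8 all 7 were below the later saline pool, but 3 were above it with equal array medians and 2 were above the week 6 saline pool. At week 10, 5 of 7 were below, and the median was 0.03 against the week 6 saline pool. The week 12 median turned to 0.01 with equal array medians and 0.10 against the week 6 saline pool. Cct3 read 251.6, 179.6, 149.4 and 337.2 in the TNBS pools, against 333.5, 295.8 and 239.9 in saline. It was 1.61-fold lower at week 10, where its other probe sets gave log2 differences of -0.42 and -0.18. Cct6a read 219.9, 177.4, 154.1 and 134.2, against 122.4, 172.6 and 191.6. It was 1.51-fold higher at week 6, but its 2 saline arrays of that week were nearly as far apart as TNBS and saline. Cct8 read 213.8, 232.6, 164.0 and 229.0, against 142.4, 181.2 and 245.9, with the largest gap between the saline pools among these subunits.

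Of the small heat shock proteins, Hspb1 was under the floor on all 7 arrays (2.2 to 23.1), so its level in these samples is not known from this probe set. Hspb2, a muscle form, read 205.8, 198.9, 163.5 and 152.7 in the TNBS pools, against 166.8, 191.8 and 233.4 in saline, and was 1.53-fold lower at week 12. The summed signal of the 8 smooth muscle markers was 14880.5, 20707.6, 18329.1 and 14050.9 in the TNBS pools. On the saline arrays it lay between 16919.2 and 18238.4. At week 6, when the log2 difference of Hspb2 was 0.20, 2 of 8 were at least 1.5-fold lower (5.96% of all genes). At week 12, 1 of 8 was lower (5.38%). None of the 8 was under the floor on all arrays, and their part in the Hspb2 value was not tested. Hspb8 was within 1.22-fold throughout.

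The FK506-binding proteins are prolyl isomerases. Fkbp1b, a subunit of the ryanodine receptor calcium channel, read 132.5, 133.9, 95.1 and 115.7 in the TNBS pools, against 153.5, 183.2 and 160.8 in saline. All 4 TNBS values lay below the saline values and the difference was largest at week 10, at 1.69-fold lower. In the pooled model its log2 difference was -0.44 (SE 0.21, limma, adjusted p = 0.888). Fkbp9, an ER member, read 237.1, 238.4, 283.9 and 360.6, against 277.9, 257.0 and 223.5. It was 1.61-fold higher at week 12, and so differed from the ER members that were high at week 8. Fkbp11, an ER gene of secretory cells, was 1.38-fold higher at week 8 (137.4 with TNBS, 99.3 in later saline), and its week 6 saline arrays read 146.6 and 149.2. The other genes of this group stayed within 1.41-fold.

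Hspg2 and Hspb11, which are not chaperones, were both at least 1.5-fold lower at week 10 but not lower at every time. Hspg2 (perlecan) read 194.0, 232.7, 94.0 and 96.2 in the TNBS pools, against 223.8, 150.0 and 158.5 in saline. It was 1.47-fold higher at week 8 and 1.69-fold and 1.65-fold lower at weeks 10 and 12. Its 2 saline arrays of 1 pool differed by nearly as much. Hspb11 read 75.3, 82.2, 75.6 and 130.2, against 89.1, 115.6 and 118.7, and was 1.57-fold lower at week 10.

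Members with and without a heat shock element were then set side by side, over the 44 measured members with an upstream window. Measured members with no window were Cct4, Dnajc2, Dnajc5, Hsp90aa1, Hspa8, Hspa9 and Hspb2, and they stand on neither side. They include Hsp90aa1 (1.73-fold higher at week 8) and Hspa9 (1.59-fold higher at week 10). Dnajc5 (1.61-fold lower at week 10) and Hspb2 (1.53-fold lower at week 12) are also among them. The 11 with the shorter element (Cct2, Cct5, Dnaja1, Dnajb6, Dnajc10, Fkbp4, Hspa1a, Hspa1b, Hspd1, Hspe1 and Hsph1) had median log2 differences of 0.12, 0.25, 0.06 and 0.20 at weeks 6, 8, 10 and 12. The 33 without it had medians of 0.02, -0.05, -0.14 and -0.04. At week 10, 0 of the 11 and 7 of the 33 were at least 1.5-fold lower (6.28% of all genes), but 3 of these 7 (Stip1, Dnajc4 and Dnajc15) passed the limit of 100 through saline pools alone, so nothing is read from this count. At week 8, 2 of the 11 (Hspe1 and Dnajc10) and 3 of the 33 were at least 1.5-fold higher (6.54% of all genes). The 3 members with the longer element, Hspe1, Hspd1 and Dnajb6, had log2 differences of 0.80, 0.37 and 0.22 at week 8, and -0.01, 0.11 and 0.09 at week 10. Chordc1, highest in the pooled order, had no match in its window. The lists are small, no test was made on them, and the 3 later comparisons share their saline pool.

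Other genes of the chaperone network, which the naming rule does not take, were described from a list of 40, of which 29 were on the array and 21 measured. At week 6, 0 were at least 1.5-fold higher and 2 lower (7.56% and 5.96% of all genes). The 2 were Unc45a, a myosin chaperone, at a log2 difference of -1.07, and Bag1, an Hsp70 exchange factor, at -0.59. At week 8, 3 were higher and 1 lower (6.54% and 9.76%). The largest of these were Bag6, which handles tail-anchored proteins, at -1.24, and Bag1 at 0.71. At week 10 there were 0 in either direction (4.89% and 6.28%). At week 12, 1 was higher and 0 lower (4.82% and 5.38%). It was Hsbp1, a negative regulator of Hsf1, at 0.60. Bag3, an Hsf1 target, read 180.5, 178.4, 222.0 and 188.0 in the TNBS pools, against 214.7, 203.7 and 157.3 in saline, within 1.5-fold at each time.

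The 15 members that were not measured account for the rest. Of these, 7 were under the floor of 50 on all 7 arrays (Dnajb2, Dnajb3, Dnajb4, Dnajb5, Dnajb8, Hspa2 and Hspb1). The other 8 reached 50 on at least 1 array, and the highest of their values was 96.8, for Dnajb13 in the week 6 TNBS pool. Dnajc1 was measured through the week 12 TNBS pool alone.

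As to the arrays and the tissue, the median signal ran from 51.8 to 61.2, and between 45.4% and 49.2% of probe sets were under the floor. All 10 colon epithelium markers on the array were measured, and their summed signal ran from 26853.2 to 44650.9 over the TNBS arrays and from 30463.6 to 35101.8 over the saline arrays, so markers of the labelled tissue were present in all pools. Of the 8 leukocyte markers, 7 were at least 1.5-fold higher at week 6 (7.56% of all genes). At weeks 8, 10 and 12, 1, 2 and 1 were higher (6.54%, 4.89% and 4.82%). None of them was under the floor on all arrays. The sum ran from 3988.3 to 6961.9 over the TNBS arrays and from 3860.2 to 4442.4 over the saline arrays, and its part in the chaperone values was not tested.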

How the data were processed

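Per the labels, 7 Affymetrix arrays were hybridised with cRNA from 10 µg of colon RNA pooled over 4 to 6 mice. The authors deposited signal intensities (linear scale), computed in Affymetrix Microarray Suite 5.0 with a scaling target of 150, per the labels. Genes were named from the 2016 platform annotation. Of 12488 probe sets, 66 controls were left out, 10833 had 1 symbol and were used, 396 had several and 1193 none. Symbols were updated through Entrez identifiers in RefSeq (10817 found).

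Values under 50 were set to 50 and taken to log2. The probe set of highest mean log2 value stood for its gene (18 members had several), and both week 6 saline arrays were averaged. Genes with a highest pool of at least 100 were kept. The members, role groups and lists were chosen with earlier results of these data known. Named were the core chaperone genes, members differing 1.5-fold in any comparison and the largest differences in each role group. limma 3.58.1 in R 4.3.3 fitted the models (intensity trend, two-sided, Benjamini-Hochberg adjustment) and tested on simulated data. The TNBS times serve as replicates of each other there, so the p-values reflect differences among pools, not among mice. Array number limits the precision. Upstream windows came from RefSeq (GRCm38.p6), with 14 members having several starts, and an element in any window was counted. Alternatives covered the floor, filter, probe set, scaling, saline pool and each pool left out.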

Additional observations from a re-analysis of the deposited data

How the results depend on the processing

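Of 161 recomputed summary values, 131 kept their level and 30 moved, and no difference of 1.5-fold or more in a named member changed sign. Members higher at week 6 (3) became 1 with log2(value + 50) and 1 with equal array medians. Members lower at week 6 (0) became 1 with quantile normalization, 1 without either week 6 saline array and 4 against the later saline pool. Members higher at week 8 (6) became 3 with the mean of a gene's probe sets and 10 with equal array medians. Members lower at week 8 (2) became 0 with a floor of 100, log2(value + 50), both scalings or a mean of at least 100, and 1 against the other saline pool. Members higher at week 10 (1) became 2 with equal array medians. Members lower at week 10 (8) became 1 with log2(value + 50) and 4 with a floor of 100, equal array medians or a mean of at least 100. Members higher at week 12 (4) became 2 with log2(value + 50) or the other saline pool. Members lower at week 12 (4) became 0 with log2(value + 50) and 2 with a floor of 100, equal array medians or a mean of at least 100. These member counts stand without the shares of all genes under the same settings. The median difference moved to 0.189 (week 8) and 0.0226 (week 10) with equal array medians, and to 0.0611 (week 12) against the other saline pool. The pooled model called 0 members under every setting, each pool left out included. The interaction called 2 with a floor of 100 (Dnajc15 and Stip1) and 3 with no filter (Cct6b, Dnajb13 and Hspa1l), genes whose later TNBS pools all lie at the floor in those settings and so have no spread. No paired analysis was possible because the groups share fewer than 2 replicate numbers. With 1 pool a time, neither the spread between mice nor the cause of these shifts was tested. Low signals limit Stip1, Dnajc15 and Dnajc4.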
